A study of Homo sapiens with 12 samples.

Results

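Circular RNAs (circRNAs) are closed loops made when a splice donor is joined back to an upstream acceptor, and reads across that back-splice junction count them. The loops described here are those whose host gene belongs to a list of 50 genes of the hypoxia-inducible factor (HIF) pathway, its targets, and the enzymes of glycolysis and glycogen. The hosts were taken by gene name, from a list drawn up with earlier results of these data known. Of the 50 hosts, 30 had a row in the deposited table of 12538 circRNAs, with 104 loops between them. Reads were found for 75 of these loops, from 26 hosts. They held 525 of 71526 junction reads, which is 0.734%.

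The libraries came from the cell lines LN229 and T98G, both established from human glioblastoma and grown in DMEM with 10% FBS. LN229 normoxia and T98G normoxia were kept in 95% air and 5% CO2. LN229 hypoxia and T98G hypoxia were kept at 1% O2 and 5% CO2, for a time that the sources used here do not give. Each of the 4 groups held 3 libraries of total RNA cleared of ribosomal RNA, and no genetic change or other agent is named in the labels. The labels do not say whether the libraries of a group were separate cultures. The spread behind each p-value is therefore that between these libraries and may be technical. It was estimated over the groups together and shared in part or fully between the tested hosts or loops.

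In cells with enough oxygen, prolyl hydroxylases of the EGLN family modify the HIF alpha subunits, and VHL then marks them for breakdown. Without oxygen the alpha subunits persist, pair with ARNT or ARNT2, and bind a short DNA core, ACGTG or GCGTG, near genes for glucose uptake, glycolysis, vessel growth and mitochondrial turnover. Glioblastoma is known for poorly oxygenated zones where this programme is active. A back-splice junction reports the loop and not the linear mRNA, so the reads below say nothing of the mRNA or protein of a host. In these bulk RNA samples, fewer cells with a loop and fewer loops per cell cannot be told apart.

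The promoters of the 3 hosts with the most junction reads are shown first, because the HIF core is the DNA sequence that this pathway reads. Each is the 250 bases before the annotated gene start in RefSeq on GRCh38.p14, plus strand, with ACGTG and GCGTG on either strand in capitals. The ZNF292 window is chr6:87155315-87155564, the UGP2 window chr2:63840719-63840968 and the PHKB window chr16:47461049-47461298, and for UGP2 and PHKB it is the first of 2 windows listed.
ZNF292: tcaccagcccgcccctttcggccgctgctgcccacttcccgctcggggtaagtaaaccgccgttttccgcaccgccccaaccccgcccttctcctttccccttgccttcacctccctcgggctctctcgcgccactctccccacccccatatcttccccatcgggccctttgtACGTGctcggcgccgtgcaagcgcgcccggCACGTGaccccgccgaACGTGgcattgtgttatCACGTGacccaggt
UGP2: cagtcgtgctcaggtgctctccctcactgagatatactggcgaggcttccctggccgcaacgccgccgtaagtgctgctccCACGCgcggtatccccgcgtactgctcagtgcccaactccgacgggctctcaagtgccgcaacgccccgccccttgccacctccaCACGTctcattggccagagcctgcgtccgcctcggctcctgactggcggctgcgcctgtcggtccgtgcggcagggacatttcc
PHKB: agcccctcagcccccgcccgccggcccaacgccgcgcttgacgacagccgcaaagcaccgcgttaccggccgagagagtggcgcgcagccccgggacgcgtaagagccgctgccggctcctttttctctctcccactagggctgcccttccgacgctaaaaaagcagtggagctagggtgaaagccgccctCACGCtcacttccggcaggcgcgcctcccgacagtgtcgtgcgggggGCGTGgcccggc

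The ZNF292 window held 6 matches to ACGTG over both strands, where a CACGTG counts on each strand, and none to GCGTG. The UGP2 window held 1 match to each core, and the PHKB window 2 matches to GCGTG and 0 to ACGTG. The second UGP2 window, not shown, held 0 matches to ACGTG and 1 to GCGTG. DENND4C, the host with the next most reads and not shown, held 0 matches to either core in both of its windows. Of the 50 hosts, 40 had a promoter entry, and 21 of the 40 (52.5%) held ACGTG in at least 1 window, against 21.7% of 27305 genes. GCGTG was held by 52.5% of the same 40 hosts and by 36.2% of all genes. Among the hosts with junction reads, 14 of 23 with a promoter entry held ACGTG in at least 1 window. Counted by window, 38.3% of 60 windows of the listed hosts held ACGTG, against 18.5% of 35116 windows of all genes. For GCGTG these shares were 43.3% and 32.2%. Many of the hosts were listed as HIF targets, so a higher share of the core is not an independent result. The 2 strings differ in their first letter, and matches on opposite strands may overlap. These matches are letters in a window, and no binding was measured.

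The 12 libraries held 4298 to 7608 junction reads each, and fewer reads make each value coarser. Some libraries stood apart from their groups. Loops of CYP24A1, the vitamin D hydroxylase, took 24.7% of the reads of LN229 normoxia 3 against 0.0353% and 0.0419% in the other 2 LN229 normoxia libraries. They took 11.3% of T98G normoxia 3 against 0% and 0.0233%, and 0.0177% of LN229 hypoxia 3 against 22.6% and 5.61%. Across tested hosts without CYP24A1, LN229 normoxia 3 correlated with its own group at an r of 0.127 to 0.184 and with the T98G hypoxia libraries at 0.589 to 0.658. T98G normoxia 3 correlated with its own group at 0.453 to 0.507 and with T98G hypoxia at 0.480 to 0.547. The LN229 hypoxia group was split as well, since LN229 hypoxia 1 correlated with its own group at 0.341 to 0.502 and with T98G hypoxia at 0.651 to 0.690. These are correlations across hosts on log2(CPM + 100), given as a description. Of 15 neural and glioma marker hosts, 2 had reads, CD44 and CDR1, the source of a long-known brain loop. Their summed reads ranged from 4 to 86 in LN229 normoxia, 66 to 94 in LN229 hypoxia, 2 to 52 in T98G normoxia and 67 to 84 in T98G hypoxia, and their part in the results below was not tested. Marker hosts of fibroblasts, endothelial cells and immune cells had 0 reads in every library, 5 genes of each.

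The loops of the list resembled other loops in build. Exonic loops made up 85.3% of the 75, against 81.8% of 9441 other loops with a host. The median predicted length of the exonic ones was 518.5 nt (214 to 3973 nt), against 557 nt. CircBase identifiers were carried by 86.7% against 76.3%, and the median loop had 3 reads in both sets. A host on the list gave 2.88 loops on average, against 2.34 for other hosts, and DENND4C gave the most of the list at 10. The median host on the list had 10 reads, against 6 for other hosts. In the 18 hosts with more than 1 loop, 55 of 67 loops shared a start or an end with another loop of the same gene. This share was not computed for other hosts.

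**Figure D1:**
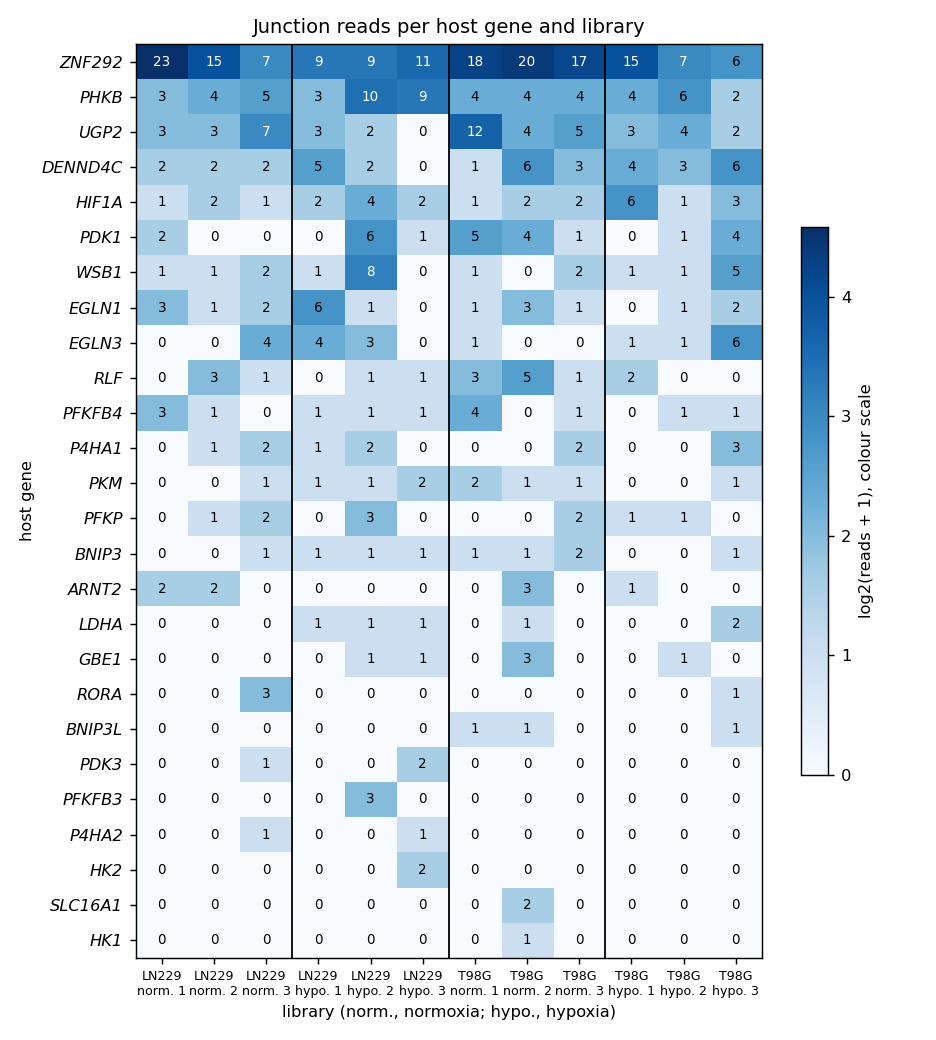
Junction reads of the 26 hosts with reads (rows, ordered by total) in each of the 12 libraries (columns), with the raw count in every cell and colour on a log2(reads + 1) scale. ZNF292 leads with 157 reads, and most cells below the first 4 hosts hold 0 to 6 reads.

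Summed over the list, the share of junction reads differed in LN229 by less than the spread between libraries. The LN229 normoxia libraries held 43, 36 and 42 reads of the list, and the LN229 hypoxia libraries 38, 59 and 35. As a share of all junction reads this was 0.689% ± 0.118 (SD, n = 3) in normoxia and 0.683% ± 0.152 (SD, n = 3) in hypoxia, with overlapping ranges. The T98G normoxia libraries held 55, 61 and 44 reads and the T98G hypoxia libraries 38, 28 and 46. The T98G shares were 1.07% ± 0.344 (SD, n = 3) in normoxia and 0.592% ± 0.111 (SD, n = 3) in hypoxia. The lowest normoxia value, 0.732%, lay just above the highest hypoxia value, 0.717%. With CYP24A1 left out of the library totals the T98G ranges overlapped, at 0.825% to 1.42% and 0.616% to 0.913%. The share was not tested, because a summed score over chosen genes has no background of its own.

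**Figure D2:**
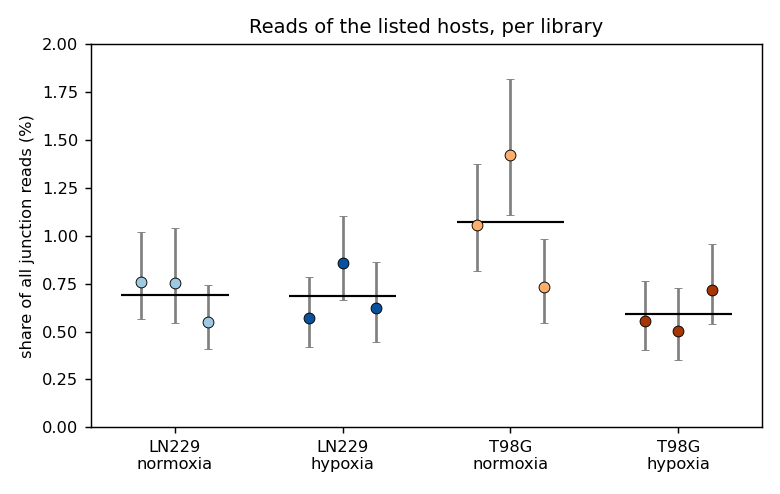
Share of all junction reads (%) that came from the listed hosts, 1 point per library with its 95% Wilson interval and a line at the group mean. The T98G normoxia mean is 1.07%, the other 3 group means lie between 0.592% and 0.689%, and the intervals of most libraries overlap.

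The oxygen-sensing machinery itself gave few loops. Of 8 genes in this role, 4 had reads, 76 in all and 2 to 12 per library. VHL, the ubiquitin ligase subunit, and ARNT, the HIF beta subunit, were listed at 0 in every library, which allows up to 3 reads or 0.0394% to 0.0698% of a library. EPAS1, the second HIF alpha subunit, and HIF1AN, the asparagine hydroxylase, had no row.

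HIF1A, the HIF alpha subunit, had 27 reads over 8 loops, all of which share an end with another. Its junctions were read in every library, with 1, 2 and 1 reads in normoxic LN229, 2, 4 and 2 in hypoxic LN229, 1, 2 and 2 in normoxic T98G, and 6, 1 and 3 in hypoxic T98G. The groups overlapped in both lines. Its most abundant loop, hsa_circ_0007976 at chr14:62188227-62188541, had 11 reads.

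EGLN3, a HIF prolyl hydroxylase that is itself a HIF target, gave a single loop with 20 reads, hsa_circ_0101692, classed as sense overlapping. It had 0, 0 and 4 reads in normoxic LN229 and 4, 3 and 0 in hypoxic LN229. In T98G it had 1, 0 and 0 reads in normoxia and 1, 1 and 6 in hypoxia. The LN229 groups overlapped, and in T98G 3 libraries tied at 1 read, so that the groups met there and hypoxia library 3 stood alone. EGLN1, the main HIF prolyl hydroxylase, had 21 reads, with 3, 1 and 2 in normoxic LN229, 6, 1 and 0 in hypoxic LN229, 1, 3 and 1 in normoxic T98G, and 0, 1 and 2 in hypoxic T98G. ARNT2, the neural partner of the HIF alpha subunits, had 8 reads, of which 7 came from the normoxia libraries numbered 1 and 2. In hypoxia it had 1 read.

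Regulators and other intracellular targets of HIF held 249 of the 525 reads, from 7 of 14 hosts, and 157 of the 249 came from ZNF292. ZNF292 encodes a large zinc finger protein, and its loops are known from human endothelial cells as hypoxia-induced. The LN229 normoxia libraries had 23, 15 and 7 reads and the LN229 hypoxia libraries 9, 9 and 11. The T98G normoxia libraries had 18, 20 and 17 reads and the T98G hypoxia libraries 15, 7 and 6. In LN229 the groups overlapped, since normoxia library 3 lay below every hypoxia library. In T98G all normoxia libraries lay above all hypoxia libraries, by a small margin after scaling (2677 against 2557 CPM for the nearest pair).

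In CPM, which are reads relative to all junction reads of a library after TMM scaling, ZNF292 had a mean of 2436 ± 1252 (SD, n = 3) in LN229 normoxia and 1532 ± 258 in LN229 hypoxia. In T98G they were 3310 ± 755 in normoxia and 1685 ± 779 in hypoxia. The log2 fold change was -0.66 in LN229 (SE 0.48, adjusted p = 0.720) and -0.95 in T98G (SE 0.48, adjusted p = 0.284) in edgeR's quasi-likelihood test with Benjamini-Hochberg adjustment over 418 hosts. Averaged over both lines it was -0.81 (SE 0.34, 95% interval -1.51 to -0.10, adjusted p = 0.189). ZNF292 therefore passed in no comparison, and its interval for the average lies on the side of lower loops in hypoxia before adjustment. Of 418 hosts, 16.7% had T98G hypoxia below normoxia in every library, as ZNF292 did.

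The side of the threshold on which the ZNF292 average fell depended on 1 library. Without LN229 normoxia 3 it was -0.96 (SE 0.30, adjusted p = 0.0313), and without normoxia 3 of both lines -1.05 (SE 0.31, adjusted p = 0.0139). Over all 19 alternatives the adjusted p ran from 0.0139 to 0.695. The same omissions raised the number of hosts that passed from 16 to 74 and 97 of 418, or 17.7% and 23.2%.

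Most ZNF292 reads came from 2 loops that share their end at position 87928449 of chromosome 6 (hg19, as in the deposited table). The first, hsa_circ_0004058 at chr6:87925621-87928449, is exonic with a predicted length of 370 nt. It had 13, 8 and 5 reads in normoxic LN229, 7, 4 and 6 in hypoxic LN229, 10, 16 and 10 in normoxic T98G, and 11, 5 and 5 in hypoxic T98G. The groups overlapped in both lines. Its log2 fold change was -0.65 in LN229 (SE 0.54) and -0.77 in T98G (SE 0.52), with adjusted p of 0.791 and 0.424 in edgeR's quasi-likelihood test over 244 circRNAs.

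The second, hsa_circ_0004383 at chr6:87920169-87928449, starts further upstream and is classed as intronic. It had 8, 6 and 1 reads in normoxic LN229 and 2, 5 and 5 in hypoxic LN229. In T98G it had 7, 3 and 5 reads in normoxia and 0, 0 and 1 in hypoxia. The LN229 groups overlapped and the T98G groups did not. Its share of all ZNF292 reads was 33.3% in LN229 normoxia, 41.4% in LN229 hypoxia and 27.3% in T98G normoxia, and 1 of 28 reads (3.57%) in T98G hypoxia.

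In T98G and on the average, this second ZNF292 loop had the smallest p of the 3 listed loops with enough reads for the test. Its log2 fold change was -3.46 in T98G (SE 1.13, adjusted p = 0.119) and -0.39 in LN229 (SE 0.78, adjusted p = 0.912) in the same edgeR quasi-likelihood test. The difference of the 2 responses was -3.07 (SE 1.40, adjusted p = 0.568), so a difference between the lines was not shown. Averaged over both lines the change was -1.92 (SE 0.70, adjusted p = 0.142). Without LN229 normoxia 3 the T98G value was -3.45 (adjusted p = 0.0225) and the average -2.18 (adjusted p = 0.0128), in a setting where 11.9% and 19.3% of all 244 circRNAs passed. Groups of both lines share the estimate of spread in this fit, so leaving out an LN229 library also changes adjusted p in T98G. A fit of the T98G libraries alone gave -3.36 (adjusted p = 0.0452), where 14.8% of all circRNAs passed. Over 21 alternatives the adjusted p in T98G ran from 0.0225 to 0.432. Of 244 circRNAs, 19.3% had T98G hypoxia below normoxia in every library.

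**Figure D3:**
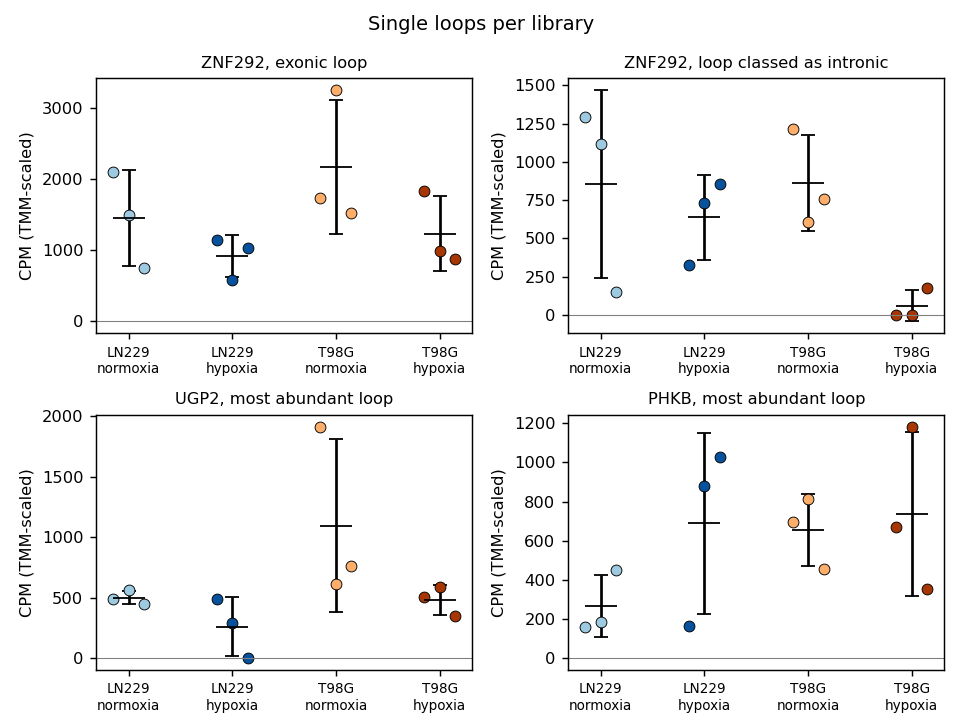
TMM-scaled CPM of 4 loops in each library, with the group mean and SD in black. The ZNF292 loop classed as intronic has 0, 0 and 1 reads in hypoxic T98G, the groups of the exonic ZNF292 loop and of the PHKB loop overlap in both lines, and the nearest T98G libraries of the UGP2 loop hold 3 reads each.

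DENND4C, a guanine nucleotide exchange factor for Rab proteins, is another host whose loop has been studied in hypoxic tumour cells. It had 36 reads over 10 loops, with 2, 2 and 2 in normoxic LN229, 5, 2 and 0 in hypoxic LN229, 1, 6 and 3 in normoxic T98G, and 4, 3 and 6 in hypoxic T98G. The groups overlapped in both lines. The log2 fold change was 0.19 in LN229 (SE 0.99, 95% interval -1.88 to 2.27) and 0.37 in T98G (SE 0.85, 95% interval -1.42 to 2.16). Its leading loop, hsa_circ_0006556 at chr9:19356970-19358158, had 10 reads spread over 6 libraries, 3 of them in T98G hypoxia 2. By library it had 1, 0 and 2 reads in normoxic LN229, 2, 0 and 0 in hypoxic LN229, 1, 0 and 1 in normoxic T98G, and 0, 3 and 0 in hypoxic T98G.

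The other regulators had 23 reads or fewer. WSB1, a ubiquitin ligase adaptor, had 23, of which 8 were in LN229 hypoxia 2 and 5 in T98G hypoxia 3. RLF, a zinc finger protein, had 17, with 0 to 5 reads per library and 9 of the 17 in T98G normoxia. BNIP3 and BNIP3L, receptors that mark mitochondria for removal, had 9 and 3 reads. NDRG1, a common hypoxia marker gene, was listed at 0, and 6 hosts of this role, including BHLHE40 and MXI1, had no row.

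Transporters, secreted factors and the enzymes that process them gave 15 reads, 0 to 3 per library. P4HA1, a collagen prolyl hydroxylase, had 11 of them over 3 loops with a common start. P4HA2, its paralog, and SLC16A1, a lactate transporter, had 2 each. The best known secreted HIF targets VEGFA, ADM and ANGPTL4 and the glucose transporter SLC2A1 had no row. ERO1L also had none, and its current symbol ERO1A stood in the table with 3 loops and 6 reads in LN229 normoxia 3 and LN229 hypoxia 3, which are not counted here.

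Glycolysis and its control gave 73 reads from 9 of 10 hosts, 1 to 15 per library. PDK1, the kinase that keeps pyruvate out of the mitochondria, led with 24 reads over 8 loops that all share an end with another. It had 2, 0 and 0 reads in normoxic LN229, 0, 6 and 1 in hypoxic LN229, 5, 4 and 1 in normoxic T98G, and 0, 1 and 4 in hypoxic T98G. The groups overlapped in both lines. PFKFB4, which sets the level of a phosphofructokinase activator, had 14 reads, and PFKP, a phosphofructokinase, had 10. PGK1, phosphoglycerate kinase, was listed at 0.

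PKM, pyruvate kinase, had 10 reads divided evenly between 2 loops that no library shared. The loop hsa_circ_0004249 had 2, 1 and 1 reads in normoxic T98G, 0, 0 and 1 in hypoxic T98G and 0 in LN229. The loop hsa_circ_0036200 had 0, 0 and 1 reads in normoxic LN229, 1, 1 and 2 in hypoxic LN229 and 0 in T98G. The main loop of LDHA, lactate dehydrogenase, hsa_circ_0006469, was read in hypoxia alone, with 1, 1 and 1 reads in hypoxic LN229 and 0, 0 and 2 in hypoxic T98G. A PFKFB4 loop, hsa_circ_0065390, was read in normoxia alone, with 5 reads. These loops were named after their values were seen. Of 24 listed loops with at least 5 reads, 2 were read in LN229 alone, 1 in T98G alone, 1 in normoxia alone and 1 in hypoxia alone. Among all 3232 loops with at least 5 reads these shares were 3.09%, 1.73%, 3.87% and 3.74%.

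Glycogen metabolism gave 112 reads, nearly all from PHKB and UGP2. PHKB, the regulatory beta subunit of the kinase that switches on glycogen breakdown, had 58 reads and was read in every library. It had 3, 4 and 5 reads in normoxic LN229, 3, 10 and 9 in hypoxic LN229, 4, 4 and 4 in normoxic T98G, and 4, 6 and 2 in hypoxic T98G. LN229 hypoxia libraries 2 and 3 were the highest of all, and library 1 lay among normoxia. The log2 fold change was 0.79 in LN229 (SE 0.60, 95% interval -0.47 to 2.05) and 0.06 in T98G (SE 0.65, 95% interval -1.30 to 1.42), with adjusted p of 0.720 and 0.963 in edgeR's quasi-likelihood test. The sign of the T98G value turned negative, to -0.44, without T98G hypoxia 2.

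The 4 PHKB loops share their start at position 47531310 of chromosome 16 and differ in where they end. The leading loop, hsa_circ_0000698 at chr16:47531310-47549512, had 1, 1 and 3 reads in normoxic LN229, 1, 6 and 6 in hypoxic LN229, 4, 4 and 3 in normoxic T98G, and 4, 6 and 2 in hypoxic T98G. It made up 52.9% of PHKB reads in LN229 and 95.8% in T98G. Its log2 fold change in hypoxia was 1.28 in LN229 (SE 0.86, adjusted p = 0.708) and 0.16 in T98G (SE 0.78, adjusted p = 0.920) in edgeR's quasi-likelihood test over circRNAs. This loop reached the read minimum of that test only in hypoxia libraries, so the filter itself favours a positive sign.

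The longer PHKB loop, hsa_circ_0004791 at chr16:47531310-47581459, was read in every LN229 library and in no T98G library. It had 1, 2 and 2 reads in normoxic LN229 and 2, 3 and 3 in hypoxic LN229. Its 13 LN229 reads gave a level 3.98-fold that of a floor of 3 counts over the T98G libraries. The counting error of the 13 reads is not included, so this is not a lower limit. This loop was named after its values were seen. No test of the lines is given for it, because its reads in LN229 alone decide whether it reaches a minimum for testing. Among 1338 loops with at least 10 reads, 0.45% were read in LN229 alone, and this loop is 1 of 10 on the list with that many.

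**Figure D4:**
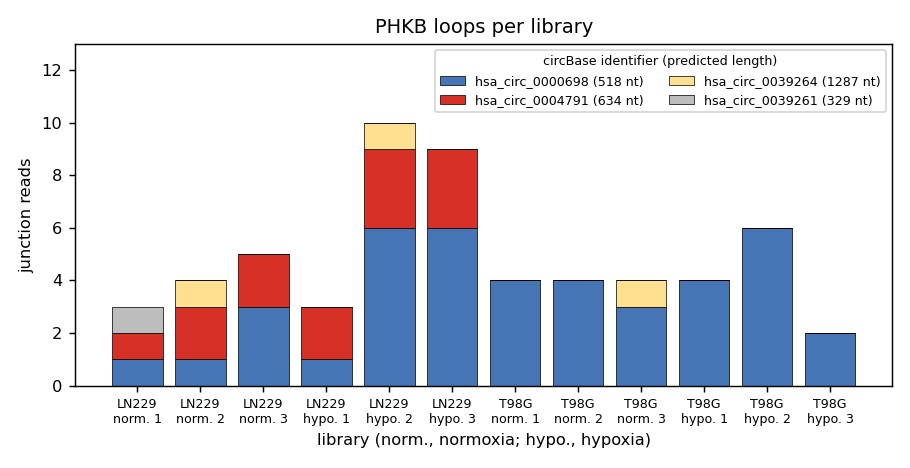
Junction reads of the 4 PHKB loops stacked for each library, by circBase identifier and predicted length. The 634 nt loop (red) is present in all 6 LN229 libraries and absent from the 6 T98G libraries, while the 518 nt loop (blue) is read in all 12.

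UGP2, which makes the UDP-glucose from which glycogen is built, had 48 reads. It had 3, 3 and 7 reads in normoxic LN229, 3, 2 and 0 in hypoxic LN229, 12, 4 and 5 in normoxic T98G, and 3, 4 and 2 in hypoxic T98G. The groups overlapped in both lines, and T98G normoxia 1 was the highest library. The log2 fold change was -1.33 in LN229 (SE 0.84, adjusted p = 0.708), -1.13 in T98G (SE 0.74, adjusted p = 0.378) and -1.23 on the average (SE 0.56, adjusted p = 0.228) in edgeR's quasi-likelihood test. It passed in no alternative run. Its sign was negative in each, but UGP2 reached 5 reads only in normoxia libraries, so the filter itself favours that sign. The leading loop, hsa_circ_0001020 at chr2:64083440-64085070, with a predicted length of 236 nt, held 41 of the reads. It had 3, 3 and 3 reads in normoxic LN229, 3, 2 and 0 in hypoxic LN229, 11, 3 and 5 in normoxic T98G, and 3, 3 and 2 in hypoxic T98G. GBE1, the branching enzyme, had 6 reads, and PYGL, PGM2 and the PHKA subunits had no row.

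At the level of the list, 4 hosts (ZNF292, PHKB, UGP2 and DENND4C) had at least 5 reads in at least 3 libraries and could be tested. None passed an adjusted p of 0.05 in edgeR's quasi-likelihood test. In LN229 0 of 4 passed, where 0% of all 418 hosts did, and in T98G 0 of 4, where again 0% did. On the average over both lines 0 of 4 passed, where 3.83% did. For the difference of the responses and for T98G against LN229, 0 of 4 passed, against 0% of all hosts in each. With DESeq2 0 of the 4 passed as well, where 0.239% of all hosts did in LN229, 4.07% on the average and 0% in the other comparisons.

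At an unadjusted p under 0.05 the 4 hosts had 0 in LN229 and 0 in T98G, where 9.33% and 18.2% of all hosts did. The average had 2 of the 4, ZNF292 and UGP2, where 19.1% of all hosts did. UGP2 reached 5 reads only in normoxia libraries, so its p is not independent of the filter. The difference of the responses had 0 (7.42% of all hosts), and the comparison of the lines had 0 (5.5%). ZNF292 and UGP2 had negative log2 fold changes and PHKB and DENND4C positive ones in LN229, in T98G and on the average. On the average the median log2 fold change of the 4 was -0.26, against 0.0011 for all hosts.

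Among single circRNAs, 0 of the 3 listed loops tested passed, where 0% of 244 did in LN229, 0.41% in T98G and 4.1% on the average. For the difference of the responses and for the lines, 0 of 3 passed, against 0% of all. At an unadjusted p under 0.05, 0 of 3 did in LN229, where 8.2% of all did. The upstream-starting ZNF292 loop was the 1 of 3 in T98G (20.9% of all), on the average (19.3%), in the difference of the responses (7.79%) and between the lines (2.87%).

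With at least 2 reads in 3 libraries, 13 hosts of the list were tested. None passed, where 0.607% of 1483 hosts did in LN229, 2.29% in T98G and 2.9% on the average. At an unadjusted p under 0.05 there were 0, 0 and 2 of the 13, against 6.74%, 12.5% and 13.8% of all hosts. In LN229, 7 of the 13 had a positive log2 fold change in hypoxia and 6 a negative one, and the counts in T98G were the same. ARNT2, negative in both lines, reached 2 reads only in normoxia libraries, so the filter itself favours its sign. Of all 1483 hosts, 46.8% were negative in LN229 and 45.1% in T98G. The smallest p of the 13 in T98G was that of EGLN3, with a log2 fold change of 2.71 (SE 1.40, adjusted p = 0.390) in edgeR's quasi-likelihood test. The spread in this fit was pooled fully over all 1483 hosts, so that p does not reflect the spread of EGLN3 itself.

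**Figure D5:**
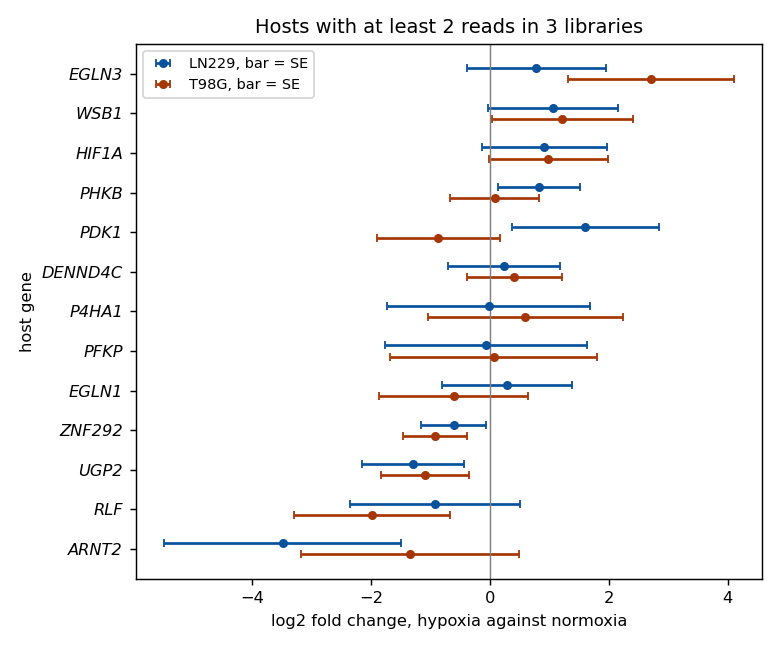
Log2 fold change in hypoxia against normoxia (x axis) of the 13 listed hosts with at least 2 reads in 3 libraries, in LN229 (blue) and T98G (orange), with SE as bars. EGLN3 in T98G is the highest at 2.71, and ZNF292, UGP2, RLF and ARNT2 are negative in both lines. ARNT2 reached 2 reads only in normoxia libraries, so the filter itself favours its negative sign. It has 0 reads in hypoxic LN229, so its value there depends on the prior count.

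A wider list of 64 further genes of the same pathways gave 633 reads from 25 hosts, 34 to 86 per library. Of these, 4 had enough reads to test, namely PLOD2, TET2, KDM4C and PDHX, and 0 passed in any comparison. Of all 418 hosts, 3.83% passed on the average and 0% in the other comparisons. PLOD2, a collagen lysyl hydroxylase and HIF target, had the smallest p in LN229 and on the average, with a log2 fold change of 0.71 (SE 0.44, adjusted p = 0.708) in LN229 and 0.38 (SE 0.31, adjusted p = 0.518) on the average in edgeR's quasi-likelihood test. KDM4C, a histone demethylase that needs oxygen, followed on the average with -0.42 (SE 0.56, adjusted p = 0.690). The 95% interval of the log2 fold change included 0 for each of the 4 hosts in LN229, in T98G and on the average.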

How the data were processed

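Junction reads of 12 libraries were analysed as deposited. The authors deposited whole-number counts of back-splice junction reads per circRNA and library, and a log2 value beside each count. The submitters' processing notes list CASAVA 1.8, BWA and hg19 without stated roles, with the circRNA caller, its filters and any use of strand not given in the sources used here. When undone as powers of 2, the authors' deposited log2 values are a straight line in the count (5.30 at a count of 0) and served as an alternative only.

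Reads were summed per host by the table's gene name. Rows without a host, 18 circRNAs with 0.0308% of the reads, stayed in the library totals and out of host tests. Tests used edgeR 4.0.16 (limma 3.58.1, R 4.3.3) on the deposited counts, TMM scaling of total junction reads, 1 mean per group over 12 libraries, features with at least 5 reads in at least 3 libraries, quasi-likelihood F tests and Benjamini-Hochberg adjustment over all tested features, two-sided, at 0.05. The common dispersion over hosts was 0.220, or a spread of 0.469 times the mean within a group beyond counting error. Counting error adds to this and is large at low reads. Each SE of an edgeR log2 fold change is its absolute value divided by the square root of its F statistic. The intervals on fold changes were built from that SE. Both are approximate, and the SE is unreliable for changes near 0. CPM are relative to junction reads, so they do not measure amounts per cell. The steps were tested on simulated counts, with a common mean per host and no library set apart from its group. In the LN229 comparison 11.6% of 2-fold, 53.5% of 4-fold and 87.8% of 8-fold changes passed with the right sign. A host that did not pass may therefore still have changed. Intervals on shares are 95% Wilson intervals and floors are 3 counts, and both cover counting error only. Reads of near-identical genes could have been split by the upstream alignment.

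Alternatives were DESeq2 1.42.0, RLE scaling, other filters, CYP24A1 left out, each library left out, a replicate block, only 1 line, and limma. The text names each host and loop with at least 5 reads in 3 libraries, the leading loop of each such host, and examples of each role. The members, lists, tests and alternatives were chosen with earlier results of these data known, including the omission of normoxia library 3 of both lines. Sequences of the loops are not shown, because no genome of the deposited build was used here.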

Additional observations from a re-analysis of the deposited data

How the results depend on the processing

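With 28 to 61 reads of the list per library, the depth limits every statement on single hosts. Of 422 recomputed log2 fold changes of hosts and loops, 404 kept their direction and side of the threshold, 7 newly passed and 11 changed sign. No listed host or loop passed in LN229, in the difference of responses or between the lines under any alternative run.

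On the average over both lines 0 listed hosts passed, and 1 (ZNF292) without normoxia 3 of both lines, where 23.2% of all 418 hosts passed. With single libraries left out the count was 0 to 1, and the 1 came without LN229 normoxia 3, where 17.7% of all hosts passed. For listed loops the T98G count of 0 became 1 in the fit of T98G alone (14.8% of all 244 circRNAs passed there) and 1 without normoxia 3 of both lines (adjusted p = 0.0238, 19.7% of all passed), with 0 to 1 when single libraries were left out. The average had 1 without normoxia 3 of both lines (adjusted p = 0.0142, 23% of all passed) and 0 to 1 with single libraries left out. In each case the loop was the upstream-starting ZNF292 loop, and the single library was LN229 normoxia 3. Without that library 11.9% of all circRNAs passed in T98G and 19.3% on the average.

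Counts over all hosts moved more. For LN229 (0 called) they were 1 with DESeq2, 9 with at least 2 reads in 3 libraries, 8 with no filter, 2 with the replicate block, 23 without normoxia 3 of both lines and 0 to 16 with single libraries left out. For T98G (0) they were 34 with the looser filter, 16 with no filter, 54 in the fit of T98G alone, 1 with the replicate block, 64 without normoxia 3 of both lines and 0 to 42 with single libraries left out. The average (16) gave 43, 29 and 97 under the looser filter, no filter and without normoxia 3 of both lines, 13 with the replicate block, and 2 to 74 with single libraries left out. The difference of responses (0) gave 1 with the looser filter, and the lines (0) gave 1 without normoxia 3 of both lines. The block moved no listed host or loop past the threshold. Deviations from the group means of same-numbered normoxia and hypoxia libraries correlated at -0.419 to 0.0274 in LN229 and -0.0208 to 0.0154 in T98G, so these numbers were not treated as pairs. Same-numbered normoxia libraries of the 2 lines did deviate together, at 0.192, 0.220 and 0.521 for numbers 1, 2 and 3. The cause of these shifts was not tested.

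Each value that changed sign was smaller than its SE. PHKB in T98G was -0.032 without normoxia 3 of both lines and ran from -0.44 to 0.42 with single libraries left out. Its leading loop in T98G was -0.055 without normoxia 3 of both lines and -0.037 with limma on the deposited log2 values, and ran from -0.32 to 0.56. DENND4C ran from -0.96 to 0.75 in LN229, -0.076 to 1.22 in T98G and -0.29 to 0.71 on the average. The upstream-starting ZNF292 loop in LN229 ran from -0.90 to 0.065.

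The share of the list without ZNF292 was 0.418% in LN229 normoxia, 0.529% in LN229 hypoxia, 0.705% in T98G normoxia and 0.446% in T98G hypoxia. Exonic loops alone gave 0.548% in LN229 normoxia, and CYP24A1 left out of the totals gave 0.740% in T98G hypoxia. With single libraries left out the 4 shares ran from 0.653% to 0.757%, 0.597% to 0.738%, 0.895% to 1.24% and 0.530% to 0.636%. Adding the ERO1A rows, chosen after seeing the data, moved no share beyond its SD.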
